A study of Homo sapiens with 9 samples.

Results

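The genes of cholesterol synthesis and its control were examined in K562 cells, an established human leukaemia line with erythroid features, that carried 1 of 3 forms of calreticulin (CALR). The group was defined by gene name and function, with earlier results of these data known: 28 genes for enzymes of the pathway, for the sterol-sensing control of SREBP transcription factors, and for sterol transport and efflux. The array annotation gave 27 of the 28 a probe set with exactly 1 gene symbol, out of 18239 genes measured in the same way, and FDFT1 (squalene synthase) is not analysed here. Where a gene had several probe sets, the brightest on average was used. Every value below is a log2 expression value, so a difference of 1 is a 2-fold change.

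Cholesterol is built from acetyl-CoA through mevalonate, isoprenoid diphosphates, squalene and lanosterol. When sterols in the ER membrane are scarce, SCAP escorts SREBP precursors to the Golgi, where proteases release the transcription factor, and INSIG proteins hold SCAP in the ER when sterols are plentiful. SREBP2 acts mainly on sterol genes and SREBP1 mainly on fatty acid genes, and both work at promoters together with the CCAAT-binding factor NF-Y. Growing leukaemia lines such as K562 need sterols for new membrane.

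There were 3 groups of 3 Affymetrix arrays. The groups were cells transduced with wild-type CALR (WT), with the Del52 deletion or with the Ins5 insertion, both known from myeloproliferative neoplasms. All 3 groups, WT included, went through 4 rounds of retroviral infection at 12 h intervals, 36 h of further culture and magnetic selection for the NGFR surface marker, with purity above 90% at 48 h after selection, and RNA came from 100000 cells per sample. The title asks how the mutants affect the unfolded protein and oxidative stress responses. All groups were thus made in 1 cell line with its own CALR gene, and untransduced cells are not analysed here. Nothing in the labels says that arrays with different replicate numbers came from separate cultures, so p-values measure only the spread between these samples.

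A property of the deposited table bears on every statement about single arrays. The mean of the 3 arrays with the same replicate number was equal for replicates 1, 2 and 3 in all 49386 probe sets, to within 6.67e-05, whereas the 3 group means of a probe set were spread over a median of 0.103. The table therefore holds no difference between replicate numbers, and what an array showed beyond its group mean adds to 0 over the 3 arrays of its number. No label or processing note used here records such a step. It has 3 consequences. An array's deviation is relative to the other arrays of its number, so a high WT array is matched by low Del52 and Ins5 arrays of that number, and which of them carried the difference in the cells cannot be told apart. A pattern seen in both mutants fixes the pattern in WT, so the 3 groups are not 3 separate observations of it. The differences between group means are untouched, but the spread around them has 4 free dimensions and not the 6 that a fit by group counts. The p-values by group are therefore too small, and the fit with the replicate number as a block counts 4. Its values are given beside each difference between groups that is printed with a p.

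Array medians lay between 3.73 and 3.76, and correlations between arrays between 0.974 and 0.998. The main axis of variation among the arrays, computed without the sterol genes, held 70.4% of the variance of the other genes. Replicates 2 and 3 were its ends in every group, with WT replicate 2 and replicate 3 of both mutants at one end. Of 11 measured K562 erythroid markers, 8 lay above the span of 23 antigenomic control probe sets (means 1.56 to 6.35). Among these 8 were HBG1, HBZ, GATA1, KLF1 and TFRC. The mean level of all 11 on an array was 8.04 to 8.21 in WT, 8.19 to 8.38 in Del52 and 8.13 to 8.23 in Ins5. Markers above that span numbered 1 of 10 for granulocytes and monocytes (LYZ), 0 of 9 for lymphoid cells and 1 of 10 for fibroblasts and epithelia (EPCAM). Among the sterol genes the mean of 12 lay above the span (ACAT2, HMGCS1, IDI1, FDPS, SQLE, CYP51A1, EBP, SC5D, DHCR7, INSIG1, SREBF2 and NPC2) and that of the other 15 within it, ABCA1 and ABCG1 near its lower end. DHCR7 also had arrays inside the span, and MSMO1, NSDHL, SCAP and NPC1, with means inside it, had arrays above it. How many of all genes lay above the span was not counted. The mean of all 23 controls lay between 2.38 and 2.45 on the arrays, far below the upper end of the span. The means of ABCA1 (2.47) and ABCG1 (2.81) were near it. How much of a level inside the span is signal of the gene was not tested. In bulk RNA, fewer cells of a type and less RNA per cell cannot be told apart.

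Promoter sequence was available in the RefSeq table (GRCh38.p14) for 24 of the 27 genes, without ACAT2, SQLE and ABCG1. A CCAAT motif on either strand (CCAAT or ATTGG) lay within 250 bases before the most upstream start of 15 of the 24 genes (62.5%), against 34.6% of 14491 measured genes with a promoter, and 9 of 24 (37.5%) had at least 2, against 11.7%. When every listed start of a gene was searched, the shares were 70.8% and 40.5%. The sterol regulatory element core TCACNCCAC, searched on both strands, was found at SREBF2 alone among these genes, against 0.87% of all promoters. These are matches of letters and not binding sites, and no match says only that the letters are not in the window. The following windows of 200 bases run from 220 to 21 bases before the start on the gene's own strand. They are shown because MSMO1, HMGCS1, CYP51A1, FDPS and INSIG1 varied widely between arrays in the same sense. Of the others, SREBF2 hardly varied on the probe set used, and NPC1 and NPC2 varied in the opposite sense. The motif was not confined to one of these classes. MSMO1, HMGCS1, FDPS and INSIG1 had it and CYP51A1 had 0, while NPC2 had 2 and NPC1 had 0. DHCR7, another widely varying gene that is not printed, had 0 before its most upstream start but had the motif before another listed start. Capitals mark CCAAT or ATTGG and, in SREBF2, also the element core.
MSMO1 (chr4:165327449-165327648, plus strand, 4 CCAAT motifs): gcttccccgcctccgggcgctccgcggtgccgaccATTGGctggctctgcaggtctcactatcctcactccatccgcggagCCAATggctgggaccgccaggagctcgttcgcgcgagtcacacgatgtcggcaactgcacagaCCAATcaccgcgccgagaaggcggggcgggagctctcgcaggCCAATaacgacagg
HMGCS1 (chr5:43313433-43313632, minus strand, 2 CCAAT motifs): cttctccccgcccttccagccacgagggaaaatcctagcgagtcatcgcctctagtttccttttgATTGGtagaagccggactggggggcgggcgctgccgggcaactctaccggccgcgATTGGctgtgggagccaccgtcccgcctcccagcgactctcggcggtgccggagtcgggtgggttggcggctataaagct
CYP51A1 (chr7:92134498-92134697, minus strand, 0 CCAAT motifs): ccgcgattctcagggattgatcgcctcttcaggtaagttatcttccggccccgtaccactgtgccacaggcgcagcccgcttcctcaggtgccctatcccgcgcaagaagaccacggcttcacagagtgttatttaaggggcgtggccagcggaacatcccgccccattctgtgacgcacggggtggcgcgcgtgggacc
FDPS (chr1:155308646-155308845, plus strand, 3 CCAAT motifs): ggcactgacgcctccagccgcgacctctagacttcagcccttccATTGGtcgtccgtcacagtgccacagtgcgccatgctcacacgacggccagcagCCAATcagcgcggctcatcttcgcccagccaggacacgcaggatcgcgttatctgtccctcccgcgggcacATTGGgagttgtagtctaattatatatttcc
INSIG1 (chr7:155297658-155297857, plus strand, 1 CCAAT motif): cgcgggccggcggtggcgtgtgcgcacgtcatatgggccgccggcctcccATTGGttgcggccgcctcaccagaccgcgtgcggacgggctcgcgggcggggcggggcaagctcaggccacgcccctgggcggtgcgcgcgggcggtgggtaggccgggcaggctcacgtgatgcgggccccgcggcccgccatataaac
SREBF2 (chr22:41832885-41833084, plus strand, 1 CCAAT motif and 1 element core): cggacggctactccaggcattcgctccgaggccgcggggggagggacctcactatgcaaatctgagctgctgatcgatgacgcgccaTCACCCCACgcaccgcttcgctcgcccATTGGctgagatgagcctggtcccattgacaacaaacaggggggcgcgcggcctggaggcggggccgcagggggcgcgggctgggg
NPC1 (chr18:23586527-23586726, minus strand, 0 CCAAT motifs): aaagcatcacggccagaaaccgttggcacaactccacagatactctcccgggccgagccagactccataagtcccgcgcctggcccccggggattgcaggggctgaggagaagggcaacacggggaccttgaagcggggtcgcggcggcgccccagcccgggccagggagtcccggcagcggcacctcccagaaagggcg
NPC2 (chr14:74493533-74493732, minus strand, 2 CCAAT motifs): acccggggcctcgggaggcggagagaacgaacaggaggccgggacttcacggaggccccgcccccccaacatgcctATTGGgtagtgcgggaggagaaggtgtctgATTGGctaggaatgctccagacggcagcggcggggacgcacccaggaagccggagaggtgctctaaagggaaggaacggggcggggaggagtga

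The mutants were compared with WT first. None of the 27 genes differed between Del52 and WT, between Ins5 and WT or between Del52 and Ins5 at a Benjamini-Hochberg adjusted p under 0.05 (limma over 18239 genes), and the background was 0 of all genes (0%) in each comparison. At an unadjusted p under 0.05 the fit by group gave 3, 1 and 3 sterol genes, against 7.05%, 7.41% and 5.77% of all genes. With the replicate block it gave 0 sterol genes in all 3 comparisons, against 2.12%, 2.12% and 1.33% of all genes.

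The median difference of the 27 genes between Del52 and WT was 0.10, against 0.01 over all genes, and 23 of 27 were above 0, against 54.6% of all genes. Between Ins5 and WT the median was 0.003, against 0.02, with 14 of 27 above 0 and 59.6% of all genes. Between Del52 and Ins5 it was 0.09, against -0.01, with 20 of 27 above 0 and 45.4% of all genes. Both comparisons with WT share the WT arrays, and the medians rest on single ones. Without WT replicate 3 they were 0.002 for Del52 and -0.08 for Ins5, and without WT replicate 2 they were 0.160 and 0.11. The median between Del52 and Ins5 was 0.01 without Del52 replicate 3 and 0.15 without Del52 replicate 2. The pooled SD within groups of the median deviation of the sterol genes on an array was 0.135 on 6 degrees of freedom and 0.165 on the 4 free ones. Both are larger than each of the medians over all 9 arrays. They are SDs of a single array, and the smaller SE of a difference between means of 3 arrays was not computed. The 95% interval of a single gene's difference under the block reached a median of 0.395 to either side, from 0.13 for SC5D to 1.40 for MSMO1, so differences under these sizes could not be resolved.

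**Figure D1:**
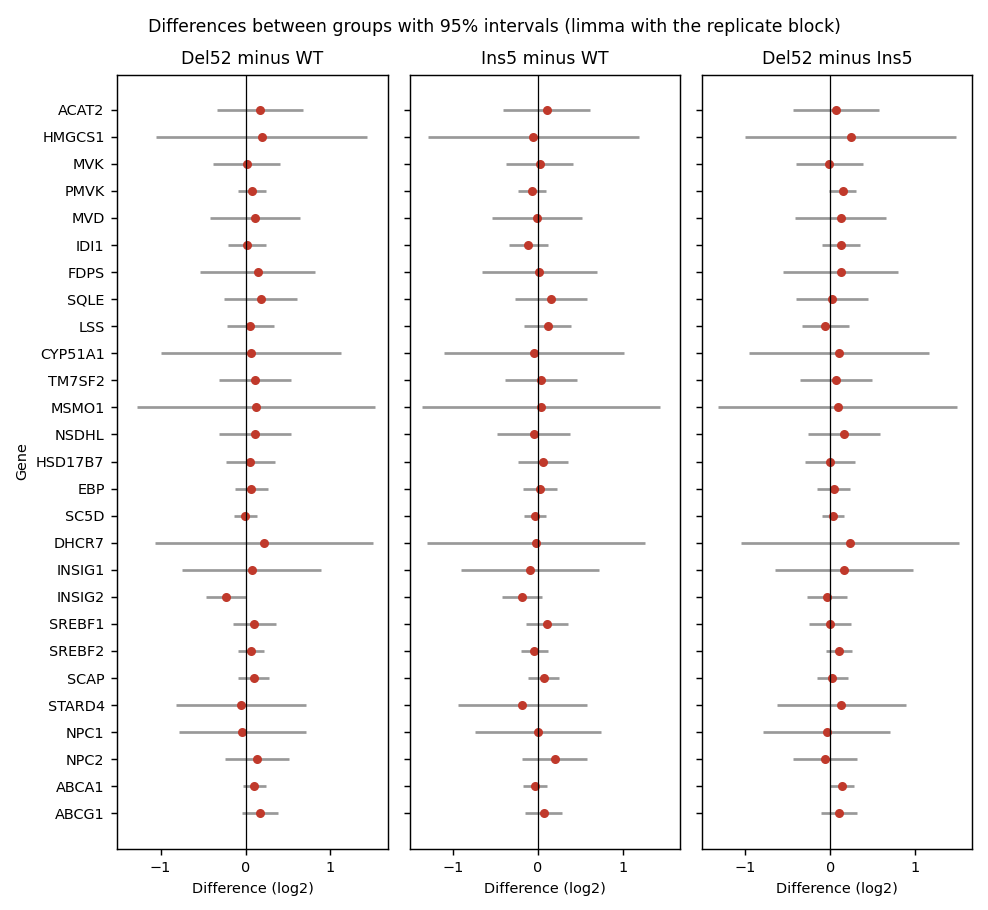
Difference in log2 expression between group means for each of the 27 sterol genes (points) with the 95% interval of the limma fit that holds the replicate number as a block (lines), in 3 panels for Del52 minus WT, Ins5 minus WT and Del52 minus Ins5. Every interval contains 0, and the intervals of MSMO1, DHCR7, HMGCS1 and CYP51A1 are the widest.

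INSIG2, which like INSIG1 retains SCAP in the ER, had the smallest p in both comparisons with WT. It read 5.35, 5.21 and 5.38 on WT replicates 1, 2 and 3, 5.06, 5.04 and 5.15 in Del52, and 5.11, 5.27 and 4.9996 in Ins5. All 3 Del52 arrays lay below the 3 WT arrays, while 1 Ins5 array lay among them. The difference was -0.23 (SE 0.08, limma adjusted p = 0.633) in Del52 and -0.19 (SE 0.08, limma adjusted p = 0.659) in Ins5. With the block the unadjusted limma p was 0.0556 in Del52 and 0.102 in Ins5, and the adjusted p was 1 in both. The other INSIG2 probe sets gave -0.07 and -0.22 for Del52 and -0.16 and -0.35 for Ins5.

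ABCA1 and ABCG1, transporters that move cholesterol out of the cell, gave the other small values in Del52. ABCA1 read 2.45 on each WT array, 2.54, 2.59 and 2.52 on Del52 replicates 1, 2 and 3, and 2.42, 2.37 and 2.45 in Ins5. The Del52 arrays lay above all others, by 0.10 over WT (SE 0.04, limma adjusted p = 0.655) and by 0.14 over Ins5 (SE 0.04, limma adjusted p = 0.841). With the block the SE was 0.06, and the unadjusted limma p was 0.116 and 0.0519. The other ABCA1 probe sets gave -0.02 and -0.02 for Del52 minus WT and 0.02 and -0.03 for Del52 minus Ins5. ABCG1 read 2.72, 2.72 and 2.76 in WT, 2.82, 3.02 and 2.86 in Del52, and 2.90, 2.70 and 2.81 in Ins5. Its Del52 arrays lay above the WT arrays by 0.17 (SE 0.07, limma adjusted p = 0.682) and overlapped Ins5. With the block the SE was 0.09 and the unadjusted limma p was 0.101, and the other ABCG1 probe sets gave 0.05, 0.08, 0.11 and -0.07. Both genes were in the range of the antigenomic controls on every array.

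Few genes had groups that did not overlap. Del52 lay wholly above WT for ABCA1 and ABCG1 (2 of 27, against 6.23% of all genes) and wholly below for INSIG2 (1 of 27, against 4.36%). Ins5 lay wholly above WT for 0 of 27 genes (8.16% of all genes) and wholly below for PMVK and SC5D (2 of 27, against 3.3%). Del52 lay wholly above Ins5 for PMVK, SREBF2 and ABCA1 (3 of 27, against 3.81%) and wholly below for 0 (6.28%).

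PMVK, which adds the second phosphate to mevalonate, read 5.44, 5.35 and 5.47 in Del52 replicates 1, 2 and 3, 5.28, 5.27 and 5.26 in Ins5, and 5.31, 5.41 and 5.30 in WT. The difference between Del52 and Ins5 was 0.15 (SE 0.05, limma adjusted p = 0.841), with the block SE 0.07 and unadjusted p = 0.0693. Its other probe sets gave 0.05 and 0.28. SREBF2, the gene of SREBP2, read 6.80, 6.75 and 6.85 in Del52, 6.66, 6.75 and 6.68 in Ins5, and 6.78, 6.73 and 6.70 in WT. Its Del52 value exceeded Ins5 by 0.11 (SE 0.05, limma adjusted p = 0.86), with the block SE 0.06 and unadjusted p = 0.143, and the mean of all its probe sets gave -0.02. In the comparison of Ins5 with WT, NPC2 differed by 0.20 (SE 0.13, limma adjusted p = 0.833) and IDI1 by -0.11 (SE 0.08, limma adjusted p = 0.833). With the block their SEs were 0.15 and 0.09 and their unadjusted limma p 0.251 and 0.274. The adjusted p with the block was 1 for each of these 6 genes.

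For most sterol genes the arrays of 1 group differed more than the groups did. The median SD within groups was 0.187 over the 27 genes, against 0.098 over all genes (on 6 degrees of freedom, which understates both alike), and 8 of 27 were above the 90th percentile of all genes, which 10.0% of genes exceed by definition: HMGCS1, FDPS, CYP51A1, MSMO1, DHCR7, INSIG1, STARD4 and NPC1. On the probe sets used, the 3 highest were MSMO1 (0.696), DHCR7 (0.636) and HMGCS1 (0.615), and the 3 lowest SC5D (0.017), ABCA1 (0.030) and SREBF2 (0.046). Differences between groups took a median of 14.0% of a sterol gene's variance in the table, against 21.3% for all genes. The share was highest for ABCA1 (85.0%), PMVK (67.0%), INSIG2 (59.9%), SREBF2 (58.3%) and SC5D (57.1%), where the groups took most of it. ABCA1, SREBF2 and SC5D were also the 3 of lowest spread, so their shares are of a small variance. Only 4 of the 6 dimensions of variation lie within groups, so groups take part of the variance without any true difference.

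**Figure D2:**
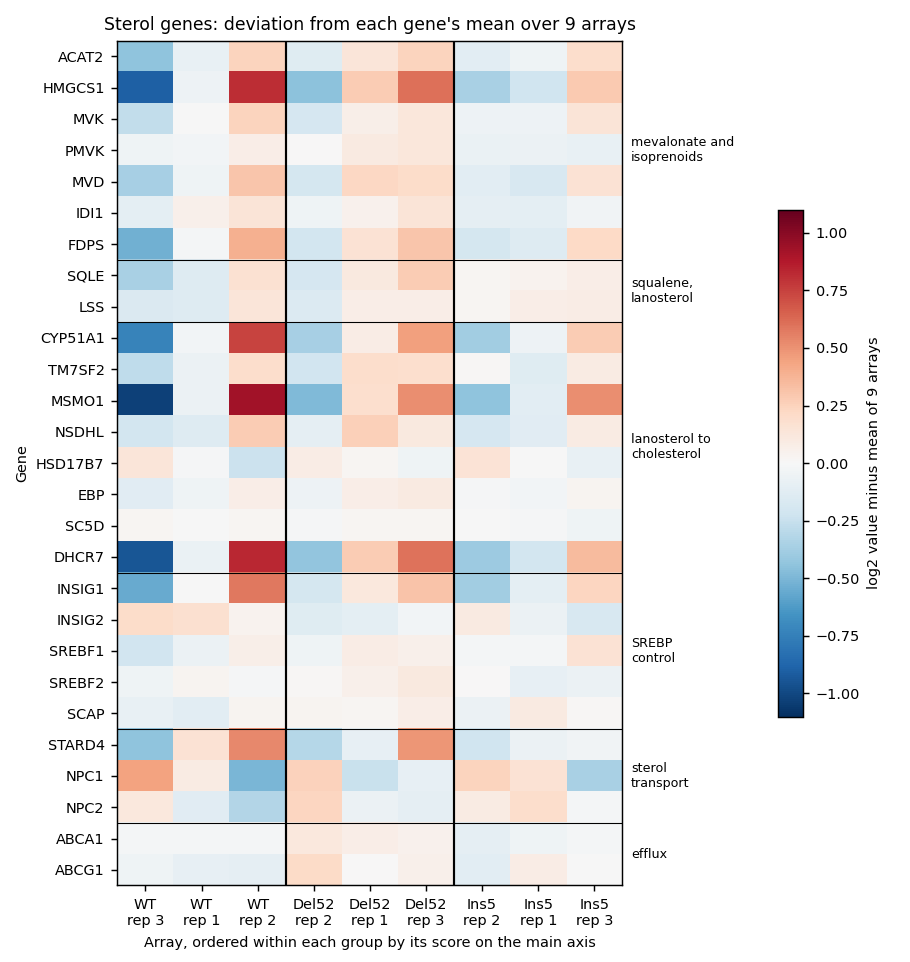
Deviation of each of the 27 sterol genes from its mean over the 9 arrays (log2, colour scale from -1.1 to 1.1), with genes in rows by role and arrays in columns, ordered within each group by their score on the main axis. WT replicate 2 and replicate 3 of both mutants are high for most synthesis genes. The deviations of the 3 arrays with the same number cancel out, because the table holds no difference between replicate numbers.

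A difference that no shift of a whole replicate number can change was computed for each gene: replicate 2 minus replicate 3 in WT, less the mean of the same difference in both mutants. It was above 1 for 9 of 27 genes, against 6.24% of all genes (ACAT2, HMGCS1, MVD, FDPS, CYP51A1, MSMO1, DHCR7, INSIG1 and STARD4), and below -1 for NPC1 alone, against 6.83%. Its median size was 0.707 over the 27 genes and 0.238 over all genes. The corresponding difference between Del52 and Ins5 had a median size of 0.132 over the 27 genes and 0.117 over all genes. The difference of WT from the mutant mean is called shift-free below. In this table it is a fixed multiple of WT replicate 2 minus replicate 3, because the 3 groups add to 0. It is thus no further observation, and opposite signs in WT and the mutant mean are fixed in advance. The main axis of the other genes had the same opposed ends. The mutants were closer to each other at the median, but differed by -0.61 in STARD4, -0.41 in SQLE and HMGCS1 and -0.37 in INSIG2. With 1 array per group and number there is no replicate of either difference and no test.

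Of the 7 genes from acetyl-CoA to farnesyl diphosphate, HMGCS1, which condenses acetyl groups to HMG-CoA, varied most. Its values were 7.42, 8.28 and 6.58 on WT replicates 1, 2 and 3, 7.75, 7.02 and 8.08 in Del52, and 7.25, 7.11 and 7.76 in Ins5. WT held both the highest and the lowest of the 9 arrays, 3.26-fold apart, and the shift-free difference was 2.56. FDPS, which makes farnesyl diphosphate, read 8.55, 8.96 and 8.05 in WT, 8.73, 8.38 and 8.88 in Del52, and 8.43, 8.38 and 8.80 in Ins5, with a shift-free difference of 1.38. ACAT2, the cytosolic thiolase that joins acetyl groups, ran from 8.20 (WT replicate 3) to 8.88 (WT replicate 2 and Del52 replicate 3), with 1.03. MVD, which decarboxylates the diphosphate of mevalonate, ran from 4.98 (WT replicate 3) to 5.65 (WT replicate 2), with 1.00, and MVK, the first kinase of mevalonate, from 4.72 to 5.23 on the same arrays, with 0.76. IDI1, which isomerises isopentenyl diphosphate, and PMVK moved little, with 0.38 and 0.17.

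SQLE and LSS, which oxidise squalene and close it to lanosterol, had shift-free differences of 0.78 and 0.44. SQLE read 8.48, 8.79 and 8.27 in WT, 8.73, 8.44 and 8.90 in Del52, and 8.66, 8.64 and 8.70 in Ins5. In the table the Ins5 arrays were nearly level and the WT and Del52 arrays were not, relative to the other arrays of each number. LSS ran from 5.05 on WT replicate 3 to 5.35 on WT replicate 2.

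Among the 8 genes from lanosterol to cholesterol, MSMO1, the methyl sterol oxidase, had the largest spread of all 27. It read 6.28, 7.27 and 5.31 on WT replicates 1, 2 and 3, 6.52, 5.86 and 6.85 in Del52, and 6.22, 5.89 and 6.85 in Ins5. WT replicate 2 exceeded WT replicate 3 by 1.96, and replicate 3 exceeded replicate 2 by 1.00 in Del52 and 0.96 in Ins5, which add to the WT difference. The shift-free difference was 2.93, and the difference between the mutants was -0.04. A pair of further MSMO1 probe sets gave WT differences of 1.87 and 2.24, and the dim remaining one 0.06.

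DHCR7, the last reductase of the pathway, read 6.60, 7.50 and 5.73 in WT, 6.95, 6.24 and 7.27 in Del52, and 6.47, 6.27 and 7.02 in Ins5. CYP51A1, the lanosterol demethylase, read 8.13, 8.91 and 7.43 in WT, 8.25, 7.80 and 8.61 in Del52, and 8.11, 7.78 and 8.45 in Ins5. In both genes WT replicate 2 was the highest and WT replicate 3 the lowest of all 9 arrays, apart by 1.77 and 1.48, and the group means lay within 0.24 of each other. TM7SF2 and NSDHL, a reductase and a dehydrogenase of intermediate sterols, had shift-free differences of 0.71 and 0.72, and EBP, the sterol isomerase, 0.30. On its brightest probe set SC5D, the desaturase of the C5 position, stayed between 6.75 and 6.82 on all 9 arrays. Its other probe sets moved more: WT replicate 2 minus replicate 3 was 0.04, 0.19 and -0.77 on them. HSD17B7, the 3-keto reductase, ran opposite to MSMO1, from 4.23 on WT replicate 2 to 4.61 on Ins5 replicate 2, with a shift-free difference of -0.54.

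**Figure D3:**
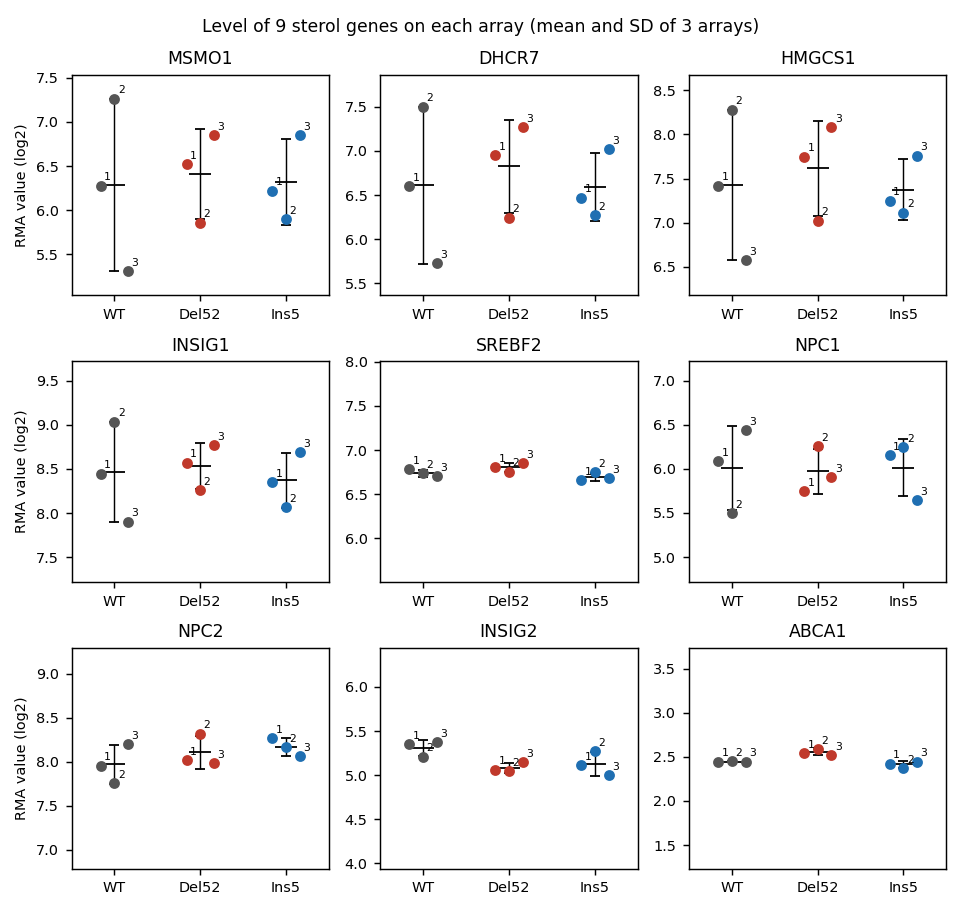
Log2 expression of 9 sterol genes on each array (points, numbered by replicate) with the mean and SD of the 3 arrays of a group, in panels that all span 2.5 log2 units. MSMO1, DHCR7, HMGCS1 and INSIG1 are highest on WT replicate 2 and lowest on WT replicate 3, NPC1 is the reverse, and SREBF2, INSIG2 and ABCA1 are nearly flat.

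Among the 5 genes of SREBP control, INSIG1, a classic sterol-repressed target that retains SCAP, was the one with a wide spread. It read 8.45, 9.04 and 7.90 in WT, 8.57, 8.26 and 8.77 in Del52, and 8.35, 8.07 and 8.69 in Ins5, with a shift-free difference of 1.70. SREBF1, the gene of SREBP1, ran from 5.89 on WT replicate 3 to 6.26 on Ins5 replicate 3, with 0.42. SCAP, the sterol sensor and escort, lay between 6.16 and 6.37, with 0.17, and SREBF2 between 6.66 and 6.85, with 0.05. INSIG2 gave -0.25. The probe sets used for SREBF1, SREBF2 and SCAP thus varied much less than that of INSIG1, though SREBF1 and SCAP ran in the same sense. SREBF2 depended on the probe set: WT replicate 2 minus replicate 3 was 0.03 on the one used and 0.14 and 0.35 on the others.

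The transport genes ran both ways. STARD4, a cytosolic sterol carrier, read 5.40, 5.77 and 4.80 in WT, 5.15, 4.93 and 5.73 in Del52, and 5.18, 5.03 and 5.21 in Ins5. The shift-free difference was 1.46, and its mutants differed most of all 27 genes, by -0.61. NPC1, the lysosomal membrane protein that exports cholesterol, read 6.09, 5.49 and 6.44 in WT, 5.75, 6.25 and 5.91 in Del52, and 6.15, 6.24 and 5.64 in Ins5, with -1.42. NPC2, its soluble partner in the lysosome, read 7.95, 7.75 and 8.20 in WT, 8.02, 8.32 and 7.98 in Del52, and 8.27, 8.17 and 8.06 in Ins5, with -0.67. Both NPC genes were lowest on WT replicate 2, where MSMO1, DHCR7, HMGCS1, CYP51A1, FDPS and INSIG1 were highest. ABCA1 and ABCG1 gave 0.01 and -0.07.

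**Figure D4:**
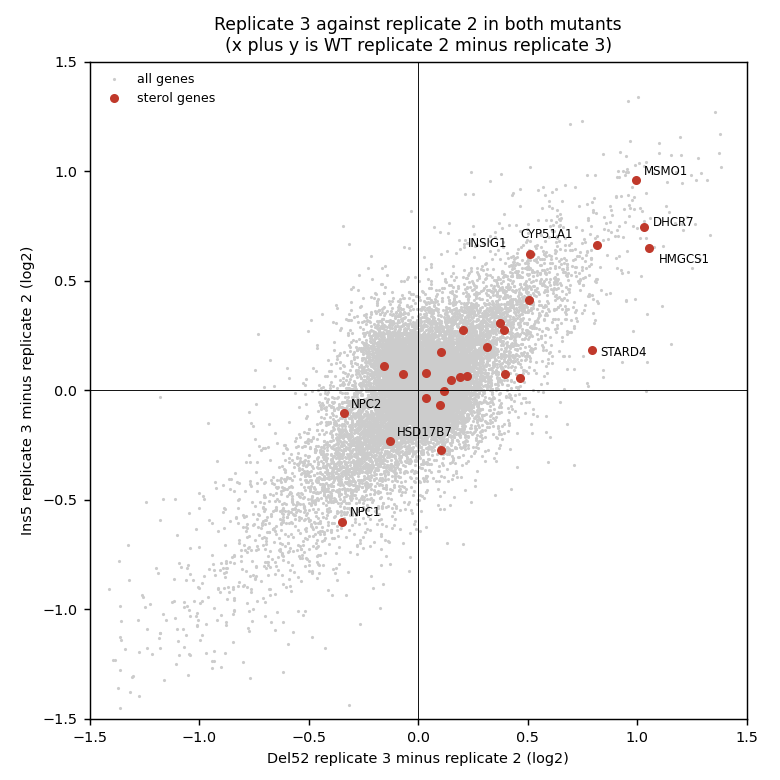
Replicate 3 minus replicate 2 in Del52 (x axis) against the same difference in Ins5 (y axis), in log2 units, for 18239 genes (grey) and the 27 sterol genes (red). The sum of both is WT replicate 2 minus replicate 3, so WT adds no further point, and MSMO1, DHCR7, HMGCS1, CYP51A1 and INSIG1 lie far out in the upper right while NPC1 lies in the lower left.

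Counted by direction, 18 of 27 genes were higher on replicate 3 than on replicate 2 in Del52 and in Ins5, and hence higher on replicate 2 in WT, against 33.0% of all genes. The reverse held for HSD17B7, NPC1 and NPC2 (3 of 27, against 27.1%). In 11 of 27 genes replicate 1 also lay between both other arrays in each group (against 9.58%): ACAT2, HMGCS1, MVK, FDPS, SQLE, LSS, CYP51A1, MSMO1, DHCR7, INSIG1 and STARD4. When the main axis was held as a covariate, the SD of MSMO1 within groups went from 0.696 to 0.033, that of CYP51A1 from 0.523 to 0.063 and that of INSIG1 from 0.401 to 0.038. The SD fell to at most 0.5 of its value in 18 of 27 genes and by less in PMVK, LSS, TM7SF2, INSIG2 and SCAP. It was not lower in SC5D, SREBF2, ABCA1 and ABCG1, which had little spread at the start. The same count was not made over all genes, and the axis held 70.4% of the variance of the other genes. The falls are therefore not shown to be particular to the sterol genes. The axis comes from the same 9 arrays, so these values describe the table and test nothing. Among other probe sets of genes with a direction, 29 of 33 had the same one, 1 the opposite and 3 were mixed.

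The array's own control probe sets differed between these arrays too. The 3' minus 5' signal of the actin control was 1.39, 1.08 and 1.31 on WT replicates 1, 2 and 3, 1.18, 1.33 and 1.24 in Del52, and 1.22, 1.38 and 1.24 in Ins5. It was lower on WT replicate 2 and on replicate 3 of both mutants than at the other end. The same difference for GAPDH was 0.0316 on WT replicate 2 and 0.112 on replicate 3, 0.166 on Ins5 replicate 2 and 0.0757 on replicate 3, but 0.0932 on Del52 replicate 2 and 0.104 on replicate 3, the other way round. The 18S control was 9.24 on WT replicate 2 and 9.88 on replicate 3, 9.17 on Ins5 replicate 2 and 8.58 on replicate 3, and nearly level in Del52, at 9.43 and 9.38. The end difference of a gene is replicate 2 minus replicate 3 in WT and replicate 3 minus replicate 2 in a mutant. Over the 11 measured erythroid markers it ran in WT from -1.11 for ALAS2 to 0.72 for TFRC, with a median of 0.02. It was above 0 in all 3 groups for 4 of the 11 and below 0 in all 3 for 5, against 33.0% and 27.1% of all genes. The part of RNA quality and of erythroid state in the spread of the sterol genes was not tested.

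Of 5 further gene lists of the pathway, 0 genes passed an adjusted p of 0.05 in any comparison by limma. The fatty acid synthesis genes under SREBP1 came closest to the sterol genes in direction: 11 of 17 were higher on replicate 3 than 2 in both mutants and 3 lower. ACLY, which makes cytosolic acetyl-CoA, had an end difference of 1.52 in WT, 0.82 in Del52 and 0.70 in Ins5. FADS1, a fatty acid desaturase, had 1.43, 0.79 and 0.64, and FASN, fatty acid synthase, 1.03, 0.47 and 0.56. For SREBP processing and sterol-regulated degradation the counts were 6 up and 2 down of 10, with MBTPS1, the Golgi site-1 protease that cuts SREBP, at 1.70, 0.88 and 0.82. The isoprenoid branches gave 5 and 3 of 11, the genes of sterol transport, esterification and storage 10 and 9 of 24, and the LXR and oxysterol genes 3 and 4 of 14. Within the transport list, SCARB1, the HDL receptor, stood at 1.93, 0.94 and 0.98, LRP8, a lipoprotein receptor, at 1.94, 1.21 and 0.73, and PLIN2, a lipid droplet coat protein, at -1.85, -0.84 and -1.01. These 7 genes were picked for their large end differences after their values were seen.

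**Figure D5:**
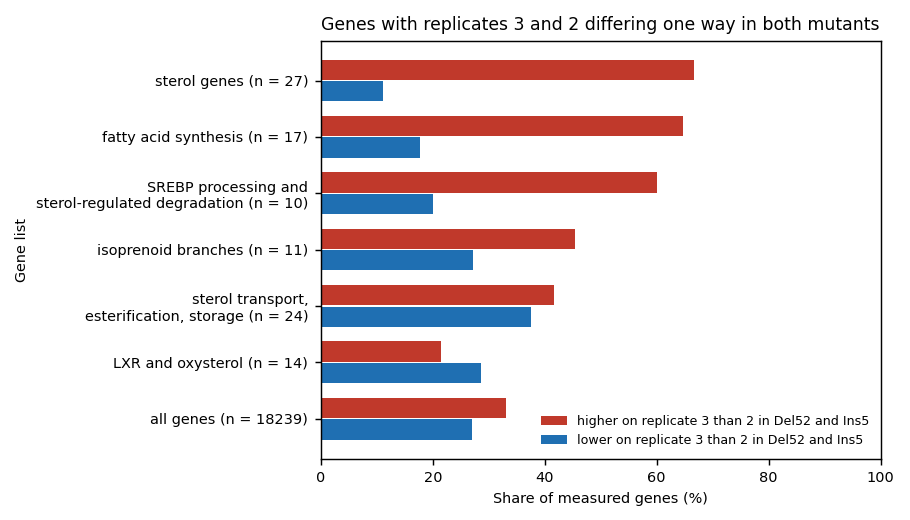
Share of measured genes (%) in each list that were higher (red) or lower (blue) on replicate 3 than on replicate 2 in both Del52 and Ins5, for the 27 sterol genes, 5 further lists and all 18239 genes. The sterol genes reach 66.7% higher and 11.1% lower, against 33.0% and 27.1% for all genes.

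By the smallest p over the 3 groups, the genes to name in each list were THRSP and GPAM, MBTPS2 and FBXW7, GGPS1 and FNTA, OSBPL5 and CAV1, and RXRA and CH25H. THRSP, a lipogenic regulator, read 3.54 in WT, 3.63 in Del52 and 3.84 in Ins5 (limma F test, adjusted p = 0.663). GPAM, which starts triglyceride synthesis, read 4.95, 4.88 and 4.57 (adjusted p = 0.683). MBTPS2, the site-2 protease that releases SREBP, read 7.21, 7.04 and 7.25 (adjusted p = 0.707). FNTA, a subunit of protein farnesyltransferase, read 8.89, 8.75 and 8.85 (adjusted p = 0.676), and RXRA, the partner of LXR, 5.55, 5.72 and 5.59 (adjusted p = 0.676). The values for FBXW7, GGPS1, OSBPL5, CAV1 and CH25H lay at adjusted p = 0.748, 0.799, 0.652, 0.676 and 0.679 in the same limma F test. With the block the adjusted p was 1 for all 10 genes, with unadjusted p from 0.0345 (OSBPL5) to 0.297 (GGPS1).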

How the data were processed

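The authors deposited 1 table of log2 values, a column for each array and a row for each probe set. Partek and RMA are named in the submitters' processing notes, with no version or setting. In the deposited log2 table the means of replicates 1, 2 and 3 over the groups are equal in every probe set, a property measured here that no source records. It takes 2 of the 6 residual degrees of freedom, leaving 4.

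Of 49386 probe sets, 93 controls, 1327 with several symbols and 2713 with none were left out. The test was limma 3.58.1 (R 4.3.3) with 1 mean per group, moderated variances and Benjamini-Hochberg adjustment over 18239 genes, all two-sided. The fit was chosen without a block, and the replicate block is printed beside it because of the equal means. Figures and counts used Python 3.11.15. The test was checked on simulated data that had no such equal means. Arrays give no read depth, and their number limits the precision.

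Members and lists were chosen with earlier results of these data known. All members are named. Per comparison, statistics are given for the 3 with the smallest p. The 3 highest and 3 lowest spreads, and the 2 smallest F test p per further list, are also named. Alternatives were other scalings, filters, probe sets, variance models, array weights, covariates and arrays left out.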

Additional observations from a re-analysis of the deposited data

How the results depend on the processing

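Without a block, 0 of 27 genes passed an adjusted p of 0.05 in each comparison, and this held under all alternatives except REML array weights, which gave 5 in Del52 minus WT and 6 in Ins5 minus WT. That estimate did not converge and put a weight of 67.0 on WT replicate 1. Weights estimated gene by gene, added after the data were seen, gave 0 and 0. The median differences moved by less than 0.135, the SD of the sterol median on an array (6 degrees of freedom), under every alternative run. That margin is wide, larger than each of the median differences itself. With an array left out they ran from 0.002 (without WT replicate 3) to 0.160 (without WT replicate 2) in Del52 minus WT, from -0.08 (without WT replicate 3) to 0.11 (without WT replicate 2) in Ins5 minus WT, and from 0.01 (without Del52 replicate 3) to 0.15 (without Del52 replicate 2) in Del52 minus Ins5. The remaining arrays still carry the adjustment made with the array left out. Averaging all probe sets reversed SREBF2 in Del52 minus Ins5, to -0.019, and its probe sets differ in sign.

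With the replicate block the medians were 0.097, 0.003 and 0.088, with 0 calls, and the count at an unadjusted p under 0.05 went from 3, 1 and 3 to 0, 0 and 0. Adding the first principal component to the block, after the data were seen, gave 2, 1 and 2. These were not counted over all genes, so they have no background to be read against. The component alone, without the block, gave 9, 6 and 7 sterol genes among 3517, 3466 and 2796 of all genes, with 4, 7 and 0 of all genes but 0 sterol genes past an adjusted p of 0.05. Deviations of same-numbered arrays correlated between -0.923 and 0.644 in 9 pairs, 2 of them over 0.1. Because these deviations add to 0 in the deposited values, the correlations cannot show whether the numbers pair the samples. For the same reason the fit by group overstates its degrees of freedom, and so do the alternatives without the block.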
